A study of Homo sapiens with 15 samples.

Results

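The genes described are those that set the passage of keratinocytes out of G1, namely the D cyclins CCND1, CCND2 and CCND3, the E cyclins CCNE1 and CCNE2, the CDK inhibitors CDKN1A, CDKN1C and CDKN2B, and the transcription factors MYC and E2F1. They were taken by gene symbol from a list of 10 names, and 9 of them were found among the 17214 genes that both tables of 9 libraries hold. CDKN2B was not analysed here. RNA of HaCaT cells, an immortal human keratinocyte line that carries mutant p53, was sequenced in 5 groups of 3 libraries. The control was untreated, and the labels give it neither a time nor a vehicle. The other groups received silver sulfide nanoparticles (Ag2S NPs) or the same particles doped with lithium (Li-doped Ag2S NPs), each at 160 or at 320 μg/mL for 24 h. All groups are of the same line, and nothing in the labels or methods says that the 3 libraries of a group are independent cultures; p-values therefore speak to the spread among libraries, which may be technical.

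D cyclins with CDK4 or CDK6, and then E cyclins with CDK2, phosphorylate the retinoblastoma protein, which frees E2F factors to switch on the genes of DNA replication. CDKN1A (p21) and CDKN1C (p57) bind and restrain these kinases, while MYC drives growth, ribosome production and entry into the cycle. In normal keratinocytes TGF-β arrests the cycle in G1, and the textbook form of that arrest has CDKN1A and CDKN2B rising while MYC and the ID genes fall.

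Values are FPKM (fragments corrected for the length of the RNA and the depth of the library), so that levels can be set side by side between genes. Fold changes are differences of log2(FPKM + 0.1) with their standard error (SE), tested with limma in a fit over all genes whose mean FPKM reached 1 and adjusted after Benjamini and Hochberg, and a gene is called higher or lower at an adjusted p below 0.05. For scarce mRNAs such as CCNE2 and E2F1 this scale makes a change look smaller. The depth of the libraries is unknown. FPKM summed over genes ran from 582451 to 698579 per library, and replicate 15 of Li-doped Ag2S NPs at 320 μg/mL had the highest sum, against 631117 and 626624 in replicates 13 and 14. Changes of G1 genes from control in that group are therefore also given without it, while sums, shares and gene lists include it. Without it CCND2, CCND3 and CCNE2 were at 0.29, -0.19 and -2.09 against control, and none of these calls changed. Against control the median of all genes tested lay at -0.137 and -0.185 with Ag2S NPs and at -0.194 and -0.256 with Li-doped Ag2S NPs (160 and 320 μg/mL), and scaling the libraries by their median ratio brought it to between -0.012 and -0.006. Where that scaling changed a direction or a call of a gene described by its changes, the scaled value stands beside it. The 4 comparisons with control share the same 3 control libraries.

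All 10 keratinocyte markers had a mean FPKM of at least 1 in every group, with sums of 9518 to 9874 in control, 13902 to 15175 and 14431 to 16091 with Ag2S NPs, and 10989 to 13198 and 24692 to 29174 with Li-doped Ag2S NPs (160 and 320 μg/mL). The sums hide unlike courses. With Li-doped Ag2S NPs at 160 μg/mL 5 of the 10 were called higher and 3 lower, against 22.6% and 40.6% of all genes. After scaling 5 were higher and 1 lower, against 30.7% and 30.1%. There KRT14 went from 2635 ± 31 to 5167 ± 647 FPKM and KRT5 from 4128 ± 96.1 to 3195 ± 362 (SD, n = 3). Of 7 fibroblast markers 6 were in the tables, and their sum ran from 13 to 16.2 in control and from 2.11 to 7.88 in treated cells. The sums of endothelial markers (4 of 5 in the tables) were 3.38 to 4.03 in control and 0.07 to 0.92 in treated cells, with CDH5 listed at a mean of 0 in both groups given Li-doped Ag2S NPs. Melanocyte markers (5 of 6) summed to between 1.86 and 3.37 over all libraries. Macrophage markers (4 of 6) summed to 10.8 to 12 in control and 26.3 to 29.6 with Li-doped Ag2S NPs at 160 μg/mL, and CD68, which many cell types express in lysosomes, held most of it with 10.3 ± 0.709 and 26.6 ± 1.31 FPKM (SD, n = 3). The part of these markers in the results on the G1 genes was not tested.

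With Ag2S NPs at 160 μg/mL, 5 of the 8 G1 genes that passed the filter on low values were called, 2 higher (CCND1, CDKN1A) and 3 lower (CCNE2, MYC, E2F1), where 35.2% of all genes tested were called (11.5% higher and 23.8% lower, or 16% and 14.1% after scaling). At 320 μg/mL the same particle gave 2 higher (CCND1, CDKN1A) and 4 lower (CCND3, CCNE2, MYC, E2F1), against 52.4% of all genes (16.2% and 36.2%, or 23.8% and 22% after scaling). Li-doped Ag2S NPs at 160 μg/mL gave 5 higher (CCND1, CCND2, CCNE1, CDKN1A, MYC) and 3 lower (CCND3, CCNE2, E2F1), against 63.3% (22.6% and 40.6%, or 30.7% and 30.1% after scaling). At 320 μg/mL they gave 3 higher (CCND1, CCNE1, CDKN1A) and 3 lower (CCNE2, MYC, E2F1), against 61.6% (17% and 44.6%, or 28% and 26.4% after scaling). With so many genes called in each comparison nothing is read from these counts by themselves, and the single genes are described by their levels, sizes and directions. In bulk RNA, fewer cells in a state and less RNA per cell cannot be told apart.

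**Figure D1:**
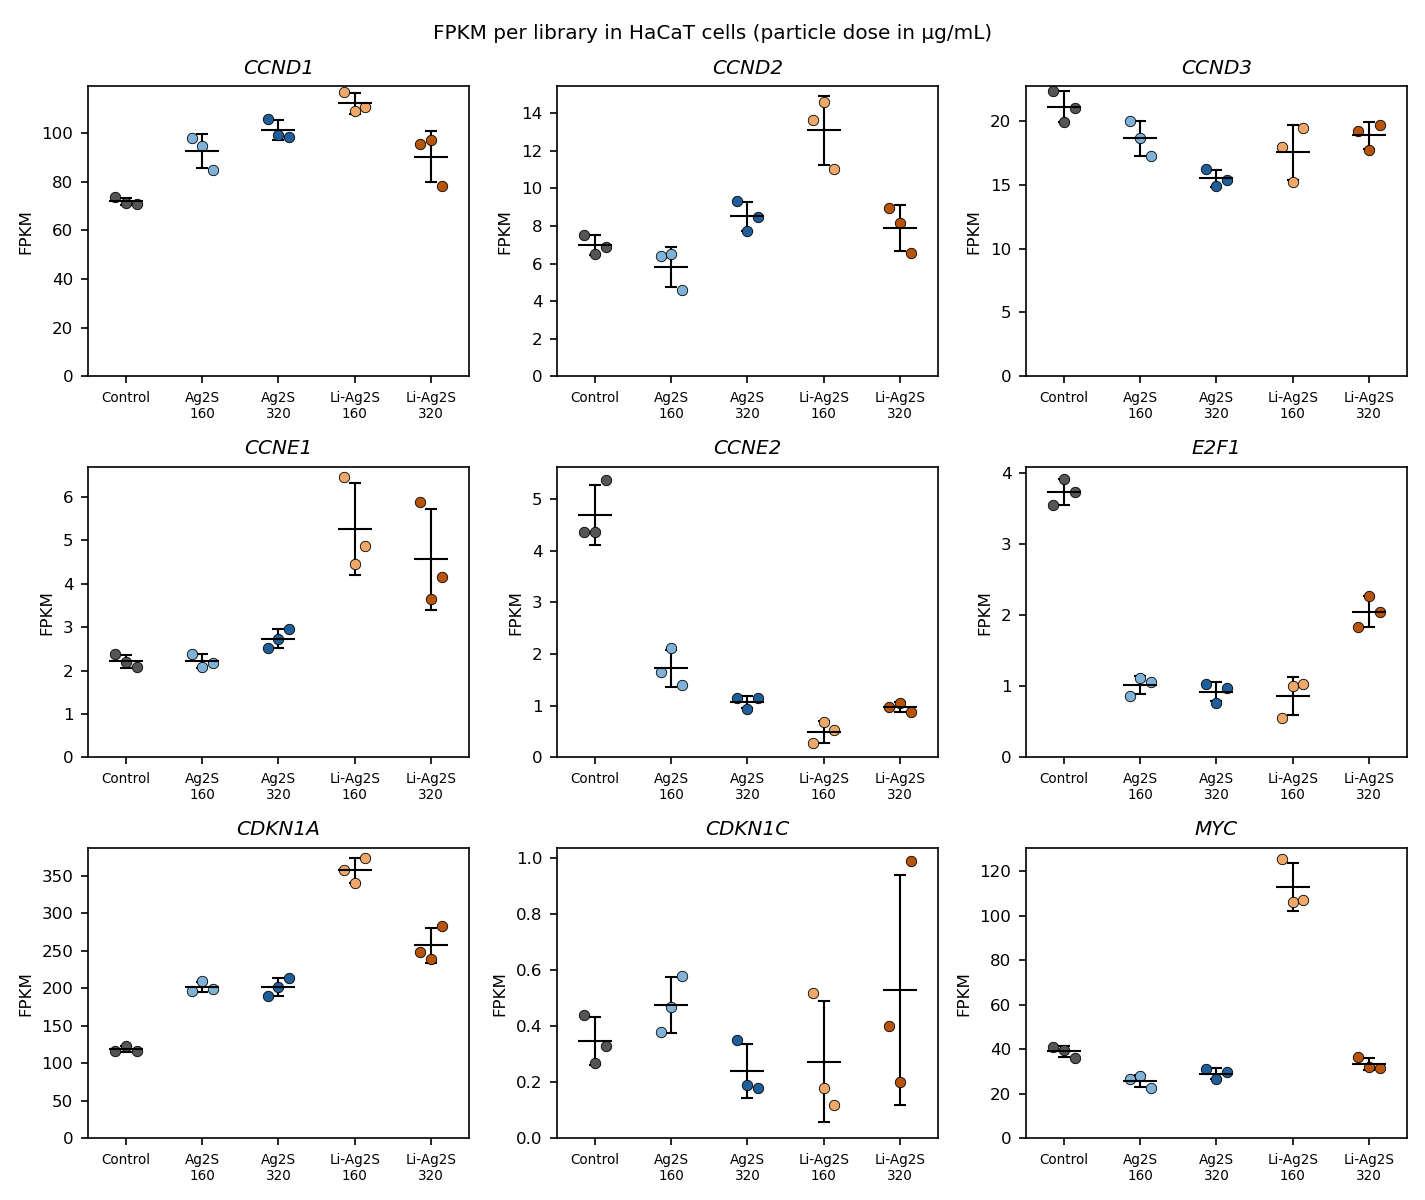
FPKM (vertical axes, each from 0) of the 9 genes in each of the 15 libraries, by group, with the mean as a bar and the SD of 3 libraries as whiskers. MYC stands high only in the group given Li-doped Ag2S NPs at 160 μg/mL (106.0 to 125.3 FPKM, against 22.78 to 41.14 in all other libraries), CDKN1A is above control in every treated library, and E2F1 and CCNE2 are below control in every treated library.

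The stretches around the transcription start of CDKN1A, CCNE1 and E2F1 are shown because these genes moved furthest in opposite directions among those whose windows were read from the RefSeq promoter table. No window of MYC or CCNE2 was read. Each is a window of 300 bases on GRCh38.p14, 250 before the start and 50 from it on, written from 5′ to 3′ along the strand of the gene. Capitals mark letters of the SP1 box (GGGCGG on either strand) and of the E2F site (TTTCCCGC, TTTGGCGC or TTTCGCGC on either strand). CDKN1A lies on the plus strand at chr6:36678464-36678763, CCNE1 on the plus strand at chr19:29811741-29812040 and E2F1 on the minus strand at chr20:33686336-33686635.
CDKN1A: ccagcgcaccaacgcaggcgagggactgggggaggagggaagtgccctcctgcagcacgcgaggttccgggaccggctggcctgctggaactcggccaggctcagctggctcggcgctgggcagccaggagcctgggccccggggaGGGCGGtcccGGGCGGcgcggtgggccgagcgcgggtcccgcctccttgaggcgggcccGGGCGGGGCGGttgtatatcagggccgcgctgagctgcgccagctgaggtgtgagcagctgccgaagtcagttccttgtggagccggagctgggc
CCNE1: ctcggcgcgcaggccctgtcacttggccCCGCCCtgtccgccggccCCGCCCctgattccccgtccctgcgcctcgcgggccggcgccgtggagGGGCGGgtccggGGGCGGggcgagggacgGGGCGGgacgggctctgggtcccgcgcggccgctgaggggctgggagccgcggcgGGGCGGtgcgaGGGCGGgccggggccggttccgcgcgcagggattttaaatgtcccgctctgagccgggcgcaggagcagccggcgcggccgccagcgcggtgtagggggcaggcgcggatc
E2F1: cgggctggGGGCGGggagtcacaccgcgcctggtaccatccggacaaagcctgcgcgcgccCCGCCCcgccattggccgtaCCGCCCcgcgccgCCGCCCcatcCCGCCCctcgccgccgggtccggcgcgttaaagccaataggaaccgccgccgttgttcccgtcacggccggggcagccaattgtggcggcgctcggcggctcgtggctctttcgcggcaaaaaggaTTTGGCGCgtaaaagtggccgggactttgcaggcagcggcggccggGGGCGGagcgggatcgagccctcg

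The window of E2F1 holds 1 match to the E2F letters, TTTGGCGC, beginning 20 bases before the start, and 6 matches to the SP1 letters. The E2F letters occur in 2.74% of all 35116 windows of this length in the table, and neither CDKN1A nor CCNE1 has them. SP1 letters stand 4 times in the window of CDKN1A, 2 of them overlapping, and 7 times in that of CCNE1, where 45.0% of all windows hold them. The E-box CACGTG (7.26% of windows), the SMAD letters CAGACA (16.9%) and the SMAD palindrome GTCTAGAC (0.202%), each searched on both strands, have no match in the 3 windows. A match of letters is a description and no site of binding.

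CCND1, the main D cyclin of these cells, held 73.65, 71.02 and 70.93 FPKM in control. It rose to 98.06, 94.72 and 84.54 with Ag2S NPs at 160 μg/mL and to 105.78, 99.24 and 98.40 at 320 μg/mL. Li-doped Ag2S NPs gave 116.90, 108.77 and 110.53 at 160 μg/mL, and 320 μg/mL gave 95.58, 97.00 and 78.04. Every treated library lay above every control library, and the highest group was that of Li-doped Ag2S NPs at 160 μg/mL. In the order of the group means only Ag2S NPs at 160 μg/mL and Li-doped Ag2S NPs at 320 μg/mL, next to each other, overlapped. The rise was 0.36 (SE 0.07, limma adjusted p = 0.00322) and 0.49 (SE 0.08, adjusted p = 0.000471) with Ag2S NPs and 0.64 (SE 0.07, adjusted p = 1.43e-05) and 0.32 (SE 0.08, adjusted p = 0.00563) with Li-doped Ag2S NPs, at 160 and 320 μg/mL. Without replicate 15 the last value was 0.42. CCND1 shares 497 exonic bases with LTO1 on the opposite strand, whose reads cannot be told apart where the library kit does not mark strand, and LTO1 moved by between -0.07 and 0.41 from 22.2 FPKM in control, with its part in the values of CCND1 not tested.

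CCND2, the D cyclin known as a direct MYC target in several cell types, was much scarcer than CCND1, with 7.52, 6.48 and 6.90 FPKM in control. Li-doped Ag2S NPs at 160 μg/mL raised it to 13.64, 14.58 and 11.03, a change of 0.89 (SE 0.16, limma adjusted p = 0.000551), and these were the highest libraries of all. The other groups lay between 4.57 and 9.30 FPKM. With Ag2S NPs its change was -0.27 (adjusted p = 0.203) at 160 μg/mL and 0.28 (adjusted p = 0.104) at 320 μg/mL, and with Li-doped Ag2S NPs at 320 μg/mL it was 0.17 (adjusted p = 0.302). After scaling by the median ratio both groups at 320 μg/mL were called higher, by 0.45 (adjusted p = 0.0084) and 0.42 (adjusted p = 0.0109). Read assignment is uncertain for CCND2, since the annotation places another gene model over 989 of its exonic bases on the same strand and an antisense RNA over 126.

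CCND3 went the other way, from 22.36, 19.93 and 21.03 FPKM in control to 16.25, 14.92 and 15.38 with Ag2S NPs at 320 μg/mL. The 2 groups did not overlap, and CCND3 fell by 0.44 on the log2 scale (SE 0.08, limma adjusted p = 0.00115). It was also called with Li-doped Ag2S NPs at 160 μg/mL (17.93, 15.20 and 19.46 FPKM; -0.27, adjusted p = 0.0429), a call that ended under scaling (-0.09, adjusted p = 0.53) and in 6 other alternatives. With Ag2S NPs at 160 μg/mL (-0.18, adjusted p = 0.206) and Li-doped Ag2S NPs at 320 μg/mL (-0.16, adjusted p = 0.115, and 0.09 after scaling) it did not pass.

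The 3 D cyclins together came to 99.9 ± 3.19 FPKM in control (SD, n = 3), 117 ± 9.42 and 125 ± 5.35 with Ag2S NPs at 160 and 320 μg/mL, and 143 ± 5.16 and 117 ± 11 with Li-doped Ag2S NPs. The mixture changed with the sum. CCND3 made up 21.1% ± 0.588 of it in control and between 12.3% and 16.3% in the treated groups, with no overlap between control (20.46% to 21.60%) and treated libraries (10.97% to 18.89%). CCND1 went from 71.9% ± 0.891 to between 77% and 80.8%. The share of CCND2 was 6.96% in control, 4.95% and 6.79% with Ag2S NPs, and 9.18% and 6.72% with Li-doped Ag2S NPs.

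CCNE1 and CCNE2 moved in opposite directions with Li-doped Ag2S NPs, while with Ag2S NPs only the fall of CCNE2 was called. CCNE1 held 2.37, 2.20 and 2.07 FPKM in control and stayed near that with Ag2S NPs, at 2.39, 2.08 and 2.18 (160 μg/mL) and 2.52, 2.73 and 2.95 (320 μg/mL). Li-doped Ag2S NPs gave 6.47, 4.46 and 4.88 at 160 μg/mL, and 320 μg/mL gave 5.88, 3.65 and 4.15. Every library of the doped particle lay above every other library, and the 2 doses overlapped. CCNE1 rose by 1.20 (SE 0.18, limma adjusted p = 0.000158) and 0.98 (SE 0.19, adjusted p = 0.00116), or 1.04 without replicate 15. With Ag2S NPs the change was 0.00 (95% interval -0.39 to 0.40, adjusted p = 0.994) and 0.29 (-0.13 to 0.72, adjusted p = 0.224), which leaves room for a small rise.

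CCNE2 held 4.36, 4.37 and 5.37 FPKM in control, more than CCNE1. It fell to 1.66, 2.11 and 1.4 with Ag2S NPs at 160 μg/mL, to 1.14, 0.93 and 1.15 at 320 μg/mL, to 0.27, 0.68 and 0.53 with Li-doped Ag2S NPs at 160 μg/mL and to 0.98, 1.06 and 0.88 at 320 μg/mL. No treated library reached control, and the lowest 3 of the 15 were those of Li-doped Ag2S NPs at 160 μg/mL, while the 2 groups at 320 μg/mL overlapped. The changes were -1.41 (SE 0.30, limma adjusted p = 0.0051), -2.03 (SE 0.20, adjusted p = 1.09e-05), -3.08 (SE 0.30, adjusted p = 5.9e-06) and -2.16 (SE 0.20, adjusted p = 5.93e-06), and with Li-doped Ag2S NPs at 160 μg/mL only 1.84% of all genes tested changed by more. At these low levels the size depends on the pseudocount, and over the alternatives it ran from -3.32 to -1.94 in that group. CCNE2 passed the filter largely through its control level, 4.7 FPKM against 1.72 and 0.493 in the groups at 160 μg/mL. That favours genes that fall, so its rank is a description only. CCNE2 shares 1629 exonic bases with INTS8 on the opposite strand, a gene with 35.4 ± 3.28 FPKM in control and 22.8 to 30.5 in the treated groups, and its part in the values of CCNE2 was not tested.

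The makeup of the E cyclins thus turned over. CCNE1 was 32.2% ± 3.87 of their summed FPKM in control, 56.5% ± 6.03 and 71.8% ± 2.87 with Ag2S NPs at 160 and 320 μg/mL, and 91.0% ± 4.66 and 81.9% ± 4.14 with Li-doped Ag2S NPs (SD, n = 3). None of the 5 groups overlapped with its neighbour in this order. The sum itself was 6.91 ± 0.463 FPKM in control and 3.94 ± 0.32 and 3.81 ± 0.254 with Ag2S NPs, where CCNE2 fell and CCNE1 did not pass. With Li-doped Ag2S NPs it was 5.76 ± 0.857 and 5.53 ± 1.16, and those libraries overlapped with control.

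**Figure D2:**
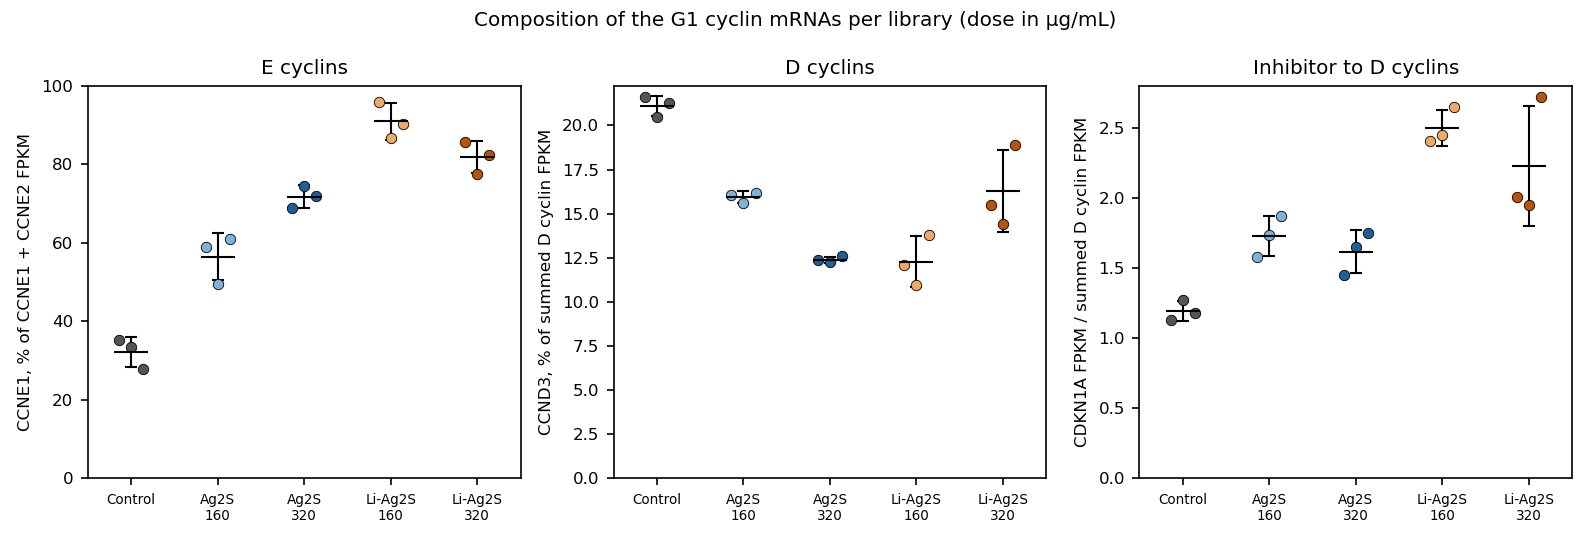
Per library and group, with the mean and SD of 3 libraries, the panels give CCNE1 as a percent of the summed FPKM of the E cyclins, CCND3 as a percent of the summed D cyclins, and the ratio of CDKN1A to the summed D cyclins. The share of CCNE1 climbs from 32.2% in control to 91.0% with Li-doped Ag2S NPs at 160 μg/mL, and the ratio of CDKN1A to D cyclins from 1.19 to 2.50.

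CDKN1A, the most abundant of the G1 genes, rose in all 4 treated groups. Control libraries held 116.79, 123.74 and 116.87 FPKM. With Ag2S NPs there were 196.73, 209.16 and 199.30 at 160 μg/mL, and 320 μg/mL gave 189.99, 201.16 and 214.21. The 2 doses of Ag2S NPs overlapped, with a difference of 0.00 (95% interval -0.15 to 0.15). Li-doped Ag2S NPs gave 357.87, 339.93 and 373.75 at 160 μg/mL, and 320 μg/mL gave 248.98, 239.66 and 283.61, and these 2 groups lay apart from each other and above all others. Against control the rise was 0.76 (SE 0.06, limma adjusted p = 1.42e-05) and 0.76 (SE 0.07, adjusted p = 8.85e-06) with Ag2S NPs, and 1.58 (SE 0.06, adjusted p = 5.87e-09), that is 3.0-fold, and 1.11 (SE 0.07, adjusted p = 3.91e-07) with Li-doped Ag2S NPs. The last value was 1.04 without replicate 15. In all groups at least 93.9% of it came from the transcript CDKN1A-201.

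CDKN1A also rose relative to the cyclins it meets. Its ratio to the summed D cyclins was 1.19 ± 0.0716 in control, 1.73 ± 0.147 and 1.62 ± 0.156 with Ag2S NPs, and 2.50 ± 0.128 and 2.23 ± 0.427 with Li-doped Ag2S NPs (160 and 320 μg/mL; SD, n = 3), and control (1.13 to 1.27) did not overlap with any treated library (1.45 to 2.72). CDKN1C was scarce, with group means from 0.24 to 0.53 FPKM and single libraries from 0.12 to 0.99, and it did not pass the filter. Tested without the filter its changes from control lay between -0.41 and 0.37, with adjusted p from 0.446 to 0.621 in limma.

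MYC was higher than control in 1 treated group and lower in the others, although with Li-doped Ag2S NPs at 320 μg/mL its change was 0.02 after scaling. It held 41.14, 39.83 and 36.25 FPKM in control, and 26.59, 27.96 and 22.78 with 160 μg/mL of Ag2S NPs, while 320 μg/mL gave 31.08, 26.55 and 29.61, all below every control library. Li-doped Ag2S NPs at 160 μg/mL gave 125.30, 106.00 and 107.25, whereas at 320 μg/mL there were 36.38, 32.12 and 31.51, next to control and overlapping with it. MYC fell by 0.60 (SE 0.10, limma adjusted p = 0.00121) and by 0.43 (SE 0.09, adjusted p = 0.00194) with Ag2S NPs. It rose by 1.53 (SE 0.10, adjusted p = 2.48e-07), or 2.88-fold, with Li-doped Ag2S NPs at 160 μg/mL, where 10.5% of all genes changed by more. At 320 μg/mL the change of -0.23 (adjusted p = 0.0403) was called, but it was -0.19 (adjusted p = 0.0912) without replicate 15 and 0.02 (adjusted p = 0.837) after scaling. The transcript MYC-207 held the largest share of it in every group, 63.9% in control, 65.8% and 46.5% with Ag2S NPs (160 and 320 μg/mL), and 79.0% and 67.5% with Li-doped Ag2S NPs.

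E2F1, which itself is switched on by E2F factors as cells leave G1, fell in all 4 groups. Control held 3.55, 3.92 and 3.74 FPKM, against 0.87, 1.12 and 1.06 with Ag2S NPs at 160 μg/mL, 1.03, 0.77 and 0.97 at 320 μg/mL, and 0.56, 1.00 and 1.03 with Li-doped Ag2S NPs at 160 μg/mL. These 3 groups overlapped with each other. Li-doped Ag2S NPs at 320 μg/mL stood between them and control, with 1.83, 2.27 and 2.05. The falls were -1.79 (SE 0.26, limma adjusted p = 0.000633), -1.91 (SE 0.19, adjusted p = 1.23e-05), -2.03 (SE 0.26, adjusted p = 4.98e-05) and -0.84 (SE 0.19, adjusted p = 0.00317), and the last of them was also -0.84 without replicate 15. With Ag2S NPs at 160 μg/mL, only 1.03% of all genes tested changed by more than E2F1. The filter was passed largely through the control level, 3.74 FPKM against 1.02 and 0.863 in the groups at 160 μg/mL. That favours genes that fall, so the rank is a description only.

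**Figure D3:**
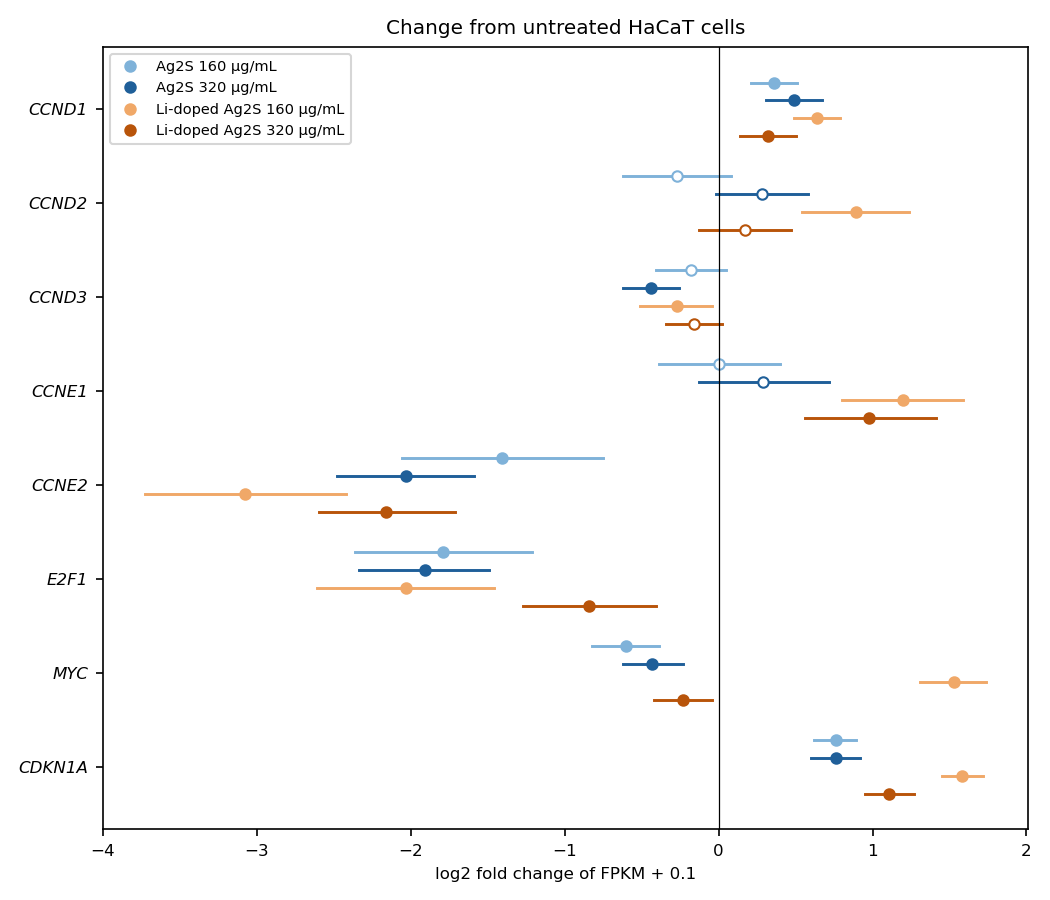
Log2 fold change from untreated cells on the FPKM + 0.1 scale (horizontal axis) for the 8 genes that passed the filter, in the 4 treated groups, with 95% intervals; filled points passed an adjusted p of 0.05 in limma. CDKN1A and CCND1 lie to the right of 0 and CCNE2 and E2F1 to the left in all 4 groups, while MYC lies at 1.53 with Li-doped Ag2S NPs at 160 μg/mL and between -0.60 and -0.23 in the other 3 groups, the last of which became 0.02 after scaling.

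At 160 μg/mL the particles were compared directly to see what lithium doping added. Of the 8 genes, 5 were higher with Li-doped Ag2S NPs than with Ag2S NPs and 1 was lower, where 50.4% of all genes were called (21.4% higher and 29% lower). MYC was 4.37-fold higher (2.13, SE 0.10, limma adjusted p = 5.13e-08), with 2.30% of all genes differing by more. CCNE1 was higher by 1.20 (SE 0.18, adjusted p = 0.000258), CCND2 by 1.16 (SE 0.16, adjusted p = 0.000138), CDKN1A by 0.82 (SE 0.06, adjusted p = 1.53e-06) and CCND1 by 0.28 (SE 0.07, adjusted p = 0.00637), and CCNE2 was lower, at -1.67 (SE 0.30, adjusted p = 0.000841). For E2F1 (-0.25, 95% interval -0.82 to 0.33) and CCND3 (-0.09, -0.33 to 0.14) the intervals include 0. MYC and CDKN1A thus both had their highest levels in the 3 libraries given Li-doped Ag2S NPs at 160 μg/mL.

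At 320 μg/mL the difference between the particles had another makeup. There 4 of the 8 genes were higher with Li-doped Ag2S NPs and 0 lower, against 26.2% of all genes called (10.1% higher and 16.1% lower, or 12.3% and 12% after scaling). E2F1 was higher by 1.07 (SE 0.19, limma adjusted p = 0.00301), a difference that only 1.5% of all genes exceeded, CCNE1 by 0.69 (SE 0.19, adjusted p = 0.0232), CDKN1A by 0.35 (SE 0.07, adjusted p = 0.00673) and CCND3 by 0.28 (SE 0.08, adjusted p = 0.0307). Without replicate 15, E2F1 was at 1.07, CCNE1 at 0.74 and CDKN1A at 0.28 and all 3 passed, whereas CCND3 (0.25, adjusted p = 0.0578) did not. CCND3 did not pass either in a fit of only the groups compared (adjusted p = 0.0674), without replicate 7 (0.0542), 8 (0.0996) or 9 (0.0702) of Ag2S NPs, or without replicate 13 of Li-doped Ag2S NPs (0.0773). CCNE1 rested on single libraries, since its adjusted p was 0.0817 without replicate 7 and 0.0627 without replicate 8 of Ag2S NPs, and 0.0825 without replicate 13 of Li-doped Ag2S NPs. MYC differed by 0.20 (95% interval 0.00 to 0.39, adjusted p = 0.12), and by 0.28 (adjusted p = 0.0372) after scaling. The intervals for CCND1 (-0.35 to 0.01), CCND2 (-0.41 to 0.19) and CCNE2 (-0.57 to 0.32) include 0.

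**Figure D4:**
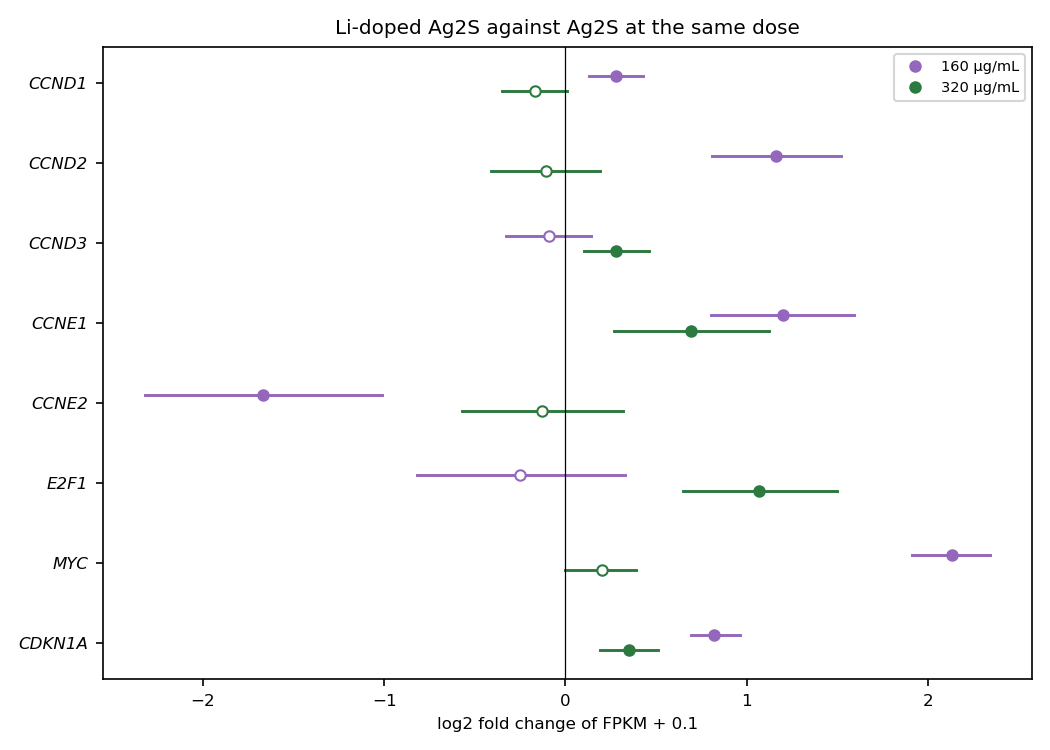
Log2 fold difference between Li-doped Ag2S NPs and Ag2S NPs at the same dose on the FPKM + 0.1 scale (horizontal axis) for 8 genes, with 95% intervals; filled points passed an adjusted p of 0.05 in limma. At 160 μg/mL MYC lies at 2.13 and CCNE2 at -1.67, and at 320 μg/mL E2F1 lies furthest from 0, at 1.07.

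Raising Ag2S NPs from 160 to 320 μg/mL moved 1 of the 8 genes, where 12.5% of all genes were called (4.84% higher and 7.68% lower, or 6.5% and 5.39% after scaling). This was CCND2, higher by 0.55 (SE 0.16, limma adjusted p = 0.0317), and it did not pass in a fit of the 2 groups alone (adjusted p = 0.0712) or without replicate 6 at 160 μg/mL (0.13) or replicate 7 (0.116) or replicate 9 (0.0805) at 320 μg/mL. Raising Li-doped Ag2S NPs moved 6, of which 4 were lower and 2 higher, against 42.8% of all genes (23.3% lower and 19.6% higher). MYC was lower at 320 than at 160 μg/mL, with a difference of -1.75 (SE 0.10, adjusted p = 2.5e-09), CCND2 with -0.72 (SE 0.16, adjusted p = 0.00174), CDKN1A with -0.48 (SE 0.07, adjusted p = 7.58e-05) and CCND1 with -0.32 (SE 0.08, adjusted p = 0.00553). E2F1 was higher by 1.19 (SE 0.24, adjusted p = 0.00085) and CCNE2 by 0.92 (SE 0.27, adjusted p = 0.0126). For CCNE2 this call ended without replicate 10 at 160 μg/mL (0.61, adjusted p = 0.0648). Without replicate 15 all 6 still passed, with MYC at -1.72. The effect of dose itself differed between the particles for 7 of the 8 genes, 3 with a higher and 4 with a lower term (39.7% of all genes, 20.2% higher and 19.5% lower), by the interaction term of the same fit. After scaling the count was 2 higher and 4 lower, since CCND3 did not pass (0.39, adjusted p = 0.054).

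For the gene lists that follow, the shares of all genes called lower were 23.8% and 36.2% with Ag2S NPs and 40.6% and 44.6% with Li-doped Ag2S NPs (14.1%, 22%, 30.1% and 26.4% after scaling), and those called higher 11.5%, 16.2%, 22.6% and 17% (16%, 23.8%, 30.7% and 28%). Values of 4 groups are given in this order, Ag2S NPs at 160 and 320 μg/mL and then Li-doped Ag2S NPs at 160 and 320 μg/mL.

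The kinases that D and E cyclins activate did not move together. CDK4 fell by 0.21 and 0.35 with Ag2S NPs and rose by 0.34 and 0.34 with Li-doped Ag2S NPs (limma adjusted p from 0.00222 to 0.0457), from 119 ± 1.26 FPKM in control to 150 ± 3.47 and 151 ± 16.5. After scaling both falls of CDK4 no longer passed (-0.08, adjusted p = 0.501, and -0.18, adjusted p = 0.187), while its rises did. CDK2, the partner of the E cyclins, fell in all 4 groups, by between -0.66 and -0.54. CDK6 was called lower with Li-doped Ag2S NPs at 320 μg/mL (-0.72, adjusted p = 0.00402). At 160 μg/mL it was at 0.42 (adjusted p = 0.0836), and was called higher after scaling (0.61, adjusted p = 0.0191).

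Among 5 other genes named as CDK inhibitors, 2 were lower with Ag2S NPs at 160 μg/mL and 3 at 320 μg/mL. With Li-doped Ag2S NPs 4 were lower at each dose, with CDKN2D called higher in addition at 160 μg/mL (0.37, limma adjusted p = 0.0407). After scaling 1, 3, 4 and 3 were lower, and CDKN2D with Li-doped Ag2S NPs at 320 μg/mL went from -0.42 (adjusted p = 0.0438) to -0.17 (adjusted p = 0.406). These counts include CDKN3, taken by its name, with changes of 0.01 and -0.64 with Ag2S NPs and of -0.91 and -0.85 with Li-doped Ag2S NPs. CDKN2C (p18), which blocks CDK4 and CDK6, went from 6.70 ± 0.253 FPKM in control to 2.66 ± 0.453, 1.57 ± 0.471, 1.11 ± 0.231 and 1.67 ± 0.157 (Ag2S NPs at 160 and 320 μg/mL, then Li-doped Ag2S NPs). CDKN1B (p27), the closest relative of CDKN1A and CDKN1C, fell in all 4 groups, with changes between -0.95 and -0.30, though with Ag2S NPs at 160 μg/mL it did not pass after scaling (-0.18, adjusted p = 0.0786).

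The mRNAs of the retinoblastoma protein and of the factors around it were mostly lower or did not pass. With Ag2S NPs 9 of 14 tested genes were lower at 160 μg/mL and 9 of 15 at 320 μg/mL. With Li-doped Ag2S NPs 7 of 14 and 9 of 15 were lower. A single gene was higher, with Li-doped Ag2S NPs at 160 μg/mL. After scaling 7, 8, 7 and 8 were lower, and 3 were higher in that group. RB1 fell in all 4 groups, with changes between -0.84 and -0.31, though with Ag2S NPs at 160 μg/mL it did not pass after scaling (-0.18, adjusted p = 0.159). E2F2, another activating E2F, fell, with changes of -2.21, -2.11, -2.73 and -1.53 (Ag2S NPs, then Li-doped Ag2S NPs, 160 before 320 μg/mL, limma adjusted p from 1.03e-05 to 0.000291). Like E2F1, E2F2 passed the filter largely through its control level of 3.67 FPKM. It held 0.737 and 0.78 FPKM with Ag2S NPs and 0.47 and 1.21 with Li-doped Ag2S NPs. That favours genes that fall, so these changes are a description only.

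All 26 genes on a list of E2F targets of the G1/S transition were tested, and 24 and 25 were lower with Ag2S NPs and 25 and 26 with Li-doped Ag2S NPs (160 and 320 μg/mL), with 0 higher in any group. Their median changes were -0.75, -1.06, -1.47 and -0.95, beside the medians of all genes given above. PCNA, the sliding clamp of DNA polymerase, fell from 127 ± 1.91 FPKM to 73.4 ± 3.01, 58.3 ± 3.0, 50.9 ± 3.75 and 62.0 ± 1.44, and CCNA2, the cyclin of S phase, from 27.8 ± 0.933 to 16.5 ± 0.851, 9.82 ± 0.408, 5.49 ± 0.864 and 7.60 ± 1.59. After scaling, the counts of lower genes were 17, 25, 25 and 21, with 1 higher, in the group given Li-doped Ag2S NPs at 160 μg/mL. All 10 proliferation markers were lower in all 4 groups (8 of them after scaling with Ag2S NPs at 160 μg/mL, and 10 in the other groups), for example CCNB1, the cyclin of mitosis, at 109 ± 2.27 FPKM in control and 36.5 ± 0.756 with Li-doped Ag2S NPs at 160 μg/mL.

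Beside MYC, a list of 20 of its textbook targets was read, most but not all of them in ribosome production, nucleotide and polyamine synthesis. CDK4, described above with the cyclin partners, is also on this list. With Li-doped Ag2S NPs at 160 μg/mL 17 were higher and 1 lower (22.6% of all genes were higher), with a median of 0.59. In the other groups 3 were higher and 9 lower, 3 higher and 8 lower (Ag2S NPs at 160 and 320 μg/mL), and 6 higher and 9 lower (Li-doped Ag2S NPs at 320 μg/mL), with medians of -0.24, -0.23 and -0.09. After scaling these became 5 higher and 4 lower, 4 and 4, and 9 and 4, with medians of -0.11, -0.06 and 0.16, while with Li-doped Ag2S NPs at 160 μg/mL 17 were higher and 0 lower. Between the doses of Li-doped Ag2S NPs 17 were lower at 320 μg/mL and 0 higher. DKC1, part of the enzyme that makes pseudouridine in ribosomal RNA, was like MYC highest in 1 group, from 28.4 ± 1.39 FPKM in control to 42.9 ± 3.43 with Li-doped Ag2S NPs at 160 μg/mL and 20.3 ± 2.59 at 320 μg/mL. ODC1, the first enzyme of polyamine synthesis, rose in all 4 groups, from 7.64 ± 0.544 FPKM to 25.6 ± 1.88, 60.7 ± 0.488, 373 ± 6.62 and 91.5 ± 3.92. TFRC, the transferrin receptor, fell in all 4, though with Li-doped Ag2S NPs at 160 μg/mL its change of -0.40 became -0.21 after scaling (limma adjusted p = 0.0538).

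**Figure D5:**
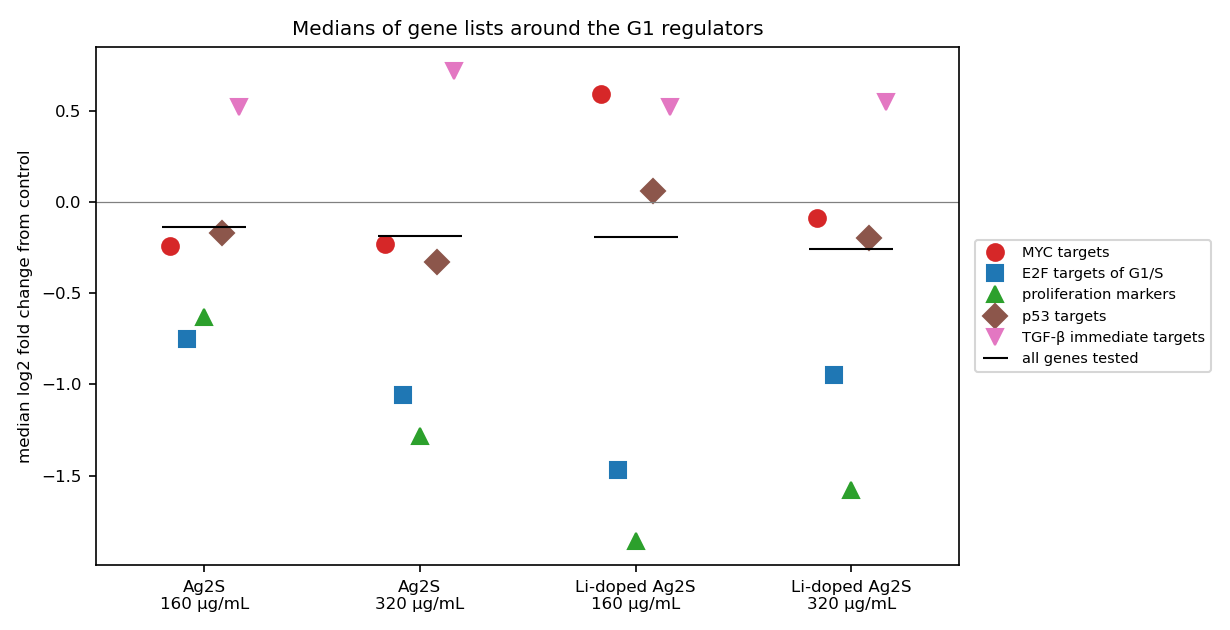
Median log2 fold change from control (vertical axis) of 5 gene lists in the 4 treated groups, with the median of all genes tested as a black bar. The MYC targets are at 0.59 with Li-doped Ag2S NPs at 160 μg/mL and between -0.24 and -0.09 in the other groups (the last became 0.16 after scaling), while E2F targets and proliferation markers lie below the bar in every group.

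MYC works as a dimer with MAX, and MXD proteins compete for MAX. Of 11 tested partners and rivals of MYC, 5, 6, 5 and 7 were lower and 0, 1, 1 and 1 higher. After scaling 2, 5, 4 and 4 were lower and 0, 1, 4 and 2 higher. MXD1 fell, with changes of -1.55 and -1.69 with Ag2S NPs and of -0.64 and -1.53 with Li-doped Ag2S NPs. MAX was at -0.09 (limma adjusted p = 0.33, and 0.09 after scaling) in the group where MYC was high, and fell by 0.34, 0.37 and 0.56 in the others. After scaling only the last of these passed (-0.31, adjusted p = 0.017, against -0.21 and -0.19 with Ag2S NPs). MYCL, a relative of MYC, rose by 0.91, 1.11 and 0.98, with Ag2S NPs at 320 μg/mL and Li-doped Ag2S NPs at both doses.

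For the cytostatic response to TGF-β, 9 immediate target genes were tested, and 6 and 7 were higher with Ag2S NPs and 6 and 5 with Li-doped Ag2S NPs (160 and 320 μg/mL), with 0, 1, 2 and 0 lower. After scaling 8, 8, 6 and 6 were higher and 0, 1, 1 and 0 lower. ID1 and ID3, which hold back differentiation and which TGF-β lowers in arrested epithelial cells, fell in all 4 groups, with changes between -3.15 and -2.29 and between -3.86 and -1.91. In the same libraries MYC was lower with Ag2S NPs and higher with Li-doped Ag2S NPs at 160 μg/mL, where ID3 had its lowest level, 26.3 ± 3.27 FPKM against 381 ± 16.2 in control. Of 14 tested factors of the cytostatic branch, ID genes included, 5 and 6 were lower with Ag2S NPs and 8 and 10 with Li-doped Ag2S NPs, and 1, 2, 2 and 3 were higher. After scaling 5, 4, 8 and 6 were lower and 2, 4, 5 and 3 higher.

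CDKN1A is also a target of p53, which is mutant in this line. Of the other p53 targets tested, 2 of 16 and 4 of 15 were higher with Ag2S NPs and 7 of 16 and 4 of 15 with Li-doped Ag2S NPs (160 and 320 μg/mL), while 4, 6, 4 and 6 were lower. After scaling 3, 4, 8 and 5 were higher and 3, 3, 3 and 4 lower. GADD45A, an inducer of growth arrest, rose in all 4 groups by 0.46, 0.85, 1.81 and 0.52, and PPM1D, a phosphatase that p53 induces, fell in all 4 by between -1.21 and -0.69. Genes that remove cyclins and inhibitors, such as parts of SCF ligases, were lower in 4, 7, 9 and 8 of 14 cases and higher in 2, 1, 1 and 1. After scaling 0, 6, 7 and 5 were lower and 2, 2, 2 and 3 higher. AMBRA1, which directs D cyclin proteins to destruction, fell from 22.3 ± 1.93 FPKM in control to between 10.7 and 15.5 in the treated groups. With Ag2S NPs at 160 μg/mL its change of -0.53 (limma adjusted p = 0.0211) did not pass after scaling (-0.40, adjusted p = 0.0695).

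Genes with a course most like each G1 gene over the 15 libraries were found by the root mean square difference of log2(FPKM + 0.1), each gene centred on its own mean, among 9142 or 9143 other genes whose mean FPKM reached 5. Nearest to MYC, whose own spread was 0.77, were HSPA9 (0.12), PPP1R15A (0.14) and DUSP5 (0.16). HSPA9, a mitochondrial chaperone, held 75.9, 56.4, 58.8, 218 and 63.9 FPKM in control, Ag2S NPs at 160 and 320 μg/mL, and Li-doped Ag2S NPs at 160 and 320 μg/mL. Nearest to CDKN1A (spread 0.52) were PORCN (0.12), SNPH (0.12) and PROCR (0.13), and to CCND1 (spread 0.23) YWHAG (0.06), PANX1 (0.08) and SNX18 (0.08). CCND2 (spread 0.42) was nearest to ARHGAP39 (0.11), SLC25A37 (0.13) and MAT2A (0.15), and CCND3 (spread 0.17) to AKT1, RBM14 and CSK (0.08 each). CCNE1 (spread 0.53) lay nearest to MROH6 (0.19), METTL1 (0.20) and KLF4 (0.20), and CCNE2 (spread 1.05) to HIST2H2BE (0.23), CASTOR3 (0.23) and GTSE1 (0.28). E2F1 (spread 0.81) lay nearest to LSS (0.35), RECQL4 (0.35) and UPK3BL1 (0.36). These distances were larger than those of the others, but distances are not scaled to the spread of each gene.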

How the data were processed

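Total RNA of HaCaT cells was sequenced as paired reads of 150 bases from 15 libraries in 5 groups, assigned by their labels. For alignment the authors used TopHat, then Cufflinks 2.1.1 and Cuffdiff for expression, with multi-read and fragment bias correction. The deposited FPKM values per gene and per transcript, rounded to 2 decimals, were taken from the 2 tables of 9 libraries (160 and 320 μg/mL), whose control values are identical. Tables of 6 libraries, which repeat these libraries, and the authors' own group values, ratios, p-values and q-values were not used. Genome build, annotation release and library strand: not given in the sources used here. All 18179 gene identifiers occur in GENCODE 29 on GRCh38, the source of gene overlaps; promoter windows are from RefSeq, GRCh38.p14. Depth is unknown.

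Genes whose mean FPKM reached 1 were fitted on log2(FPKM + 0.1) with limma 3.58.1 in R 4.3.3 (lmFit, eBayes with trend, 2-sided), 9 libraries per dose for comparisons with control and between particles, and 15 libraries for comparisons between doses and for the dose by particle interaction. p-values were adjusted by Benjamini and Hochberg over all genes tested. The settings varied were the pseudocount (1 or 0.01), the filter (none, or 5 FPKM), median ratio scaling, a robust fit, a fit of only the groups compared, a fit of all 15 libraries, and leaving out each library. The fit was tested on simulated data. All G1 genes are named. From every other list up to 4 genes with the smallest p for Li-doped Ag2S NPs at 320 μg/mL against control could be named, and for each G1 gene the 3 genes nearest in course. The values of 1 gene of the TGF-β targets are not reported here. The genes, lists and tests were chosen with earlier results of these data known.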

Additional observations from a re-analysis of the deposited data

Results flagged for a closer look

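The change from 160 to 320 μg/mL differed between the particles for 7 of the 8 G1 genes tested, by the interaction term of a limma fit over 15 libraries, where 39.7% of all genes tested were called. For MYC the change with dose with Li-doped Ag2S NPs minus that with Ag2S NPs was -1.93 on the log2 scale (SE 0.14, adjusted p = 5.85e-08). The same term was -1.28 for CCND2 (SE 0.22, adjusted p = 0.000332), -0.47 for CDKN1A (SE 0.10, adjusted p = 0.0016) and -0.45 for CCND1 (SE 0.12, adjusted p = 0.00614). It was 1.54 for CCNE2 (SE 0.38, adjusted p = 0.00474), 1.32 for E2F1 (SE 0.34, adjusted p = 0.00551) and 0.37 for CCND3 (SE 0.14, adjusted p = 0.0432), and the last did not pass after scaling (0.39, adjusted p = 0.054, which leaves 6 genes) or without any 1 of 8 libraries, namely replicates 4, 5, 8, 9, 10, 11, 13 and 15 (0.27 to 0.39, adjusted p from 0.057 to 0.117). CCNE1 did not pass, at -0.51 (95% interval -1.07 to 0.06, adjusted p = 0.145), but was at -0.70 (adjusted p = 0.0407) without replicate 13 of Li-doped Ag2S NPs at 320 μg/mL.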

How the results depend on the processing

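Of 994 recomputed fold changes of G1 genes, 953 kept their call, 36 no longer passed, 4 newly passed and 1 called change took the other sign. The last was MYC with Li-doped Ag2S NPs at 320 μg/mL against control, at 0.02 after scaling. Changes that passed in neither fit count among the 953 even where their sign differed. An example is CCND3 in the same comparison, which ran from -0.20 to 0.09. A mean FPKM of at least 5 left out CCNE1, CCNE2 and E2F1, so the G1 genes called against control were 3 with Ag2S NPs and 5 with Li-doped Ag2S NPs at 160 μg/mL and 3 with Li-doped Ag2S NPs at 320 μg/mL, and 2 between the particles at 320 μg/mL. That last count was 2 to 4 when single libraries were left out (2 without replicate 7 or 8 of Ag2S NPs or replicate 13 of Li-doped Ag2S NPs), and all genes called there, 3124, ranged from 1720 (without replicate 7) and 1943 (without replicate 8 of Ag2S NPs) to 3574. Between the doses of Ag2S NPs the count of G1 genes was 0 in a fit of only the groups compared and 0 to 1 when single libraries were left out, with 926 to 1260 genes called in all instead of 1497, and at most 963 of them without replicate 7, 8 or 9 of Ag2S NPs at 320 μg/mL. No paired analysis was possible because the groups share no replicate numbers. Levels near 1 FPKM, unknown depth and 3 libraries per group limit the precision for CCNE2, E2F1 and CDKN1C.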
